A study of Homo sapiens with 2 samples.

Results

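Metallothioneins are small cysteine-rich proteins that bind zinc and copper. The genes described here are 6 human metallothionein genes, MT1X, MT2A, MT1E, MT1F, MT1G and MT1M, together with SLC30A1, which encodes the zinc exporter ZnT1 of the plasma membrane. They were taken by symbol as 7 of the 36601 human genes measured, with SLC30A1 as the partner in the zinc response. Levels were read along hypoxia level, which was computed from other genes.

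The data are Visium spatial transcriptomes of sections from 2 tumors, Tumor-897 and Tumor-899. Both were grown from MDA-MB-231, an established line of human triple-negative breast cancer that here carried a hypoxia fate-mapping reporter, and were collected on day 18 after implantation without treatment, frozen and cut at 10 µm. Both belong to 1 group, there is no other group to set them against, and the host's own cells are part of the tissue. The labels do not state whether the 2 tumors came from separate mice. P-values measure only how far differences between zones vary between these sections, moderated over all genes. That variation may be technical. The fluorescence that marks cells with a past in hypoxia was not used here. Comparisons were therefore made between zones within each section.

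Tumor-897 gave 58661164 unique molecular identifiers (UMIs, each standing for 1 captured transcript end) over 2536 spots, and Tumor-899 gave 39736292 over 2846 spots, of which 2841 were kept. The median was 23574 and 15895 UMIs per spot. The sections share 1627 spot barcodes, which mark array positions and not cells. A spot is a small patch that can hold several cells, and reads of the mouse host that map to a human gene look the same as human ones. Of the 5 markers expected in the line, VIM, CD44, AXL, LGALS1 and ANXA1 stood at 405 to 5639 UMIs per 1000000 UMIs (CPM) in both tumors. ESR1, PGR and CDH1, which the line lacks, stood at 0.126 CPM or less, whereas EPCAM, listed with them, stood at 19.7 and 17.8 CPM.

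Transcription of metallothionein genes is driven by zinc through MTF1, a zinc finger factor that binds metal response elements (MREs) near the start of these genes. SLC30A1 is a textbook target of the same factor, so that zinc export and zinc binding are usually induced together. Hypoxia acts on its own targets through the HIF factors, which bind hypoxia response elements (HREs), and metallothionein transcripts are known to be raised in many hypoxic tissues.

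The 6 metallothionein genes lie in a cluster on chromosome 16 (GRCh38.p14, RefSeq), from MT2A at 56608584 to 56609497 through MT1E, MT1M, MT1F and MT1G to MT1X at 56682470 to 56684196. SLC30A1 lies on chromosome 1 at 211571568 to 211579161. Upstream sequences were at hand for 3 of the 7 members, MT1X, MT2A and SLC30A1. They are shown because 2 of these genes differed along hypoxia level and SLC30A1, a target of the same factor, did not pass the test. Each run holds the 250 bases before the annotated start, 5′ to 3′ on the gene's strand (RefSeq, GRCh38.p14), and capitals mark MRE cores. The MRE core searched was TGCACNC or TGCGCNC and the HRE core was ACGTG or GCGTG, each on both strands, and HRE cores are not marked. In MT2A the HRE core shares 3 bases with an MRE core and is in capitals there.
MT1X, chr16:56682220-56682469, plus strand: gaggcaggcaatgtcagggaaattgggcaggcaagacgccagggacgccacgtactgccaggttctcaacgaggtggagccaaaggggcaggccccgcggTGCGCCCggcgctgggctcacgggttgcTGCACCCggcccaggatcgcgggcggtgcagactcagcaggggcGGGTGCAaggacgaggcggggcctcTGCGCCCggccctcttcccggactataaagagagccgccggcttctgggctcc
MT2A, chr16:56608334-56608583, plus strand: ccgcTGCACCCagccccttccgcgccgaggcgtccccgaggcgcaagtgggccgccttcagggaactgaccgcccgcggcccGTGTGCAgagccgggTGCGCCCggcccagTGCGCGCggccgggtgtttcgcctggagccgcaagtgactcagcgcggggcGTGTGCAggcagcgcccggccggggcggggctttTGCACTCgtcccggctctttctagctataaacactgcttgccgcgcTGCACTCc
SLC30A1, chr1:211579162-211579411, minus strand: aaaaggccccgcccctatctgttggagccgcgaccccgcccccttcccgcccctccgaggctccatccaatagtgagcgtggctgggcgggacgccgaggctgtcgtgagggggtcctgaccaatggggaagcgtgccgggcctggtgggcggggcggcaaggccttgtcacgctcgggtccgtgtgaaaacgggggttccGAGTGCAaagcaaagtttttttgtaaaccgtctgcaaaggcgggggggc

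The MT2A window held 7 MRE cores, the MT1X window 4 and the SLC30A1 window 1. Of 35116 windows of the same length over all genes in the RefSeq table, 24.8% held at least 1 MRE core, 0.370% at least 4 and 0.0313% at least 7. MT1X and MT2A held 1 HRE core each and SLC30A1 held 3, against 43.2% of all windows with at least 1 and 7.76% with at least 3. In MT1X the MRE core nearest the start ended 47 bases upstream and the farthest began 150 bases upstream. These are matches of letters and not measured binding sites.

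Among the 6 metallothionein members MT2A was the most abundant, MT1E and MT1X followed, and the other 3 were scarce. Over whole sections MT2A stood at 4037 CPM in Tumor-897 and 3699 CPM in Tumor-899. MT1E stood at 1226 and 944 CPM, and MT1X at 620 and 364 CPM. UMIs count transcript ends, so no scaling by gene length was applied. SLC30A1 stood at 39.5 and 42.2 CPM, MT1M at 17.3 and 15.02 CPM, and MT1F at 15.9 and 13.1 CPM. MT1G gave 10 and 7 UMIs in all and was too low to test. The order of the first 4 genes was the same in both sections, whereas for MT1M and MT1F the counting intervals (95%, exact Poisson, counting error only) overlapped in both, at 16.3 to 18.4 against 14.9 to 17.0 CPM in Tumor-897 and 13.8 to 16.3 against 12.03 to 14.3 CPM in Tumor-899. These genes are close paralogs, so reads can be split between copies or dropped, and the summed count of the 6 was analysed beside each gene. MT1A, a paralog outside the members and this sum, stood at 96.1 CPM in Tumor-897 and 94.2 CPM in Tumor-899.

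Each section was divided into 4 hypoxia levels by quartiles of a score over 28 hypoxia-induced genes, with level 4 the highest. None of the 7 members is in the score, but score and members come from the same spots and share their depth. UMIs were summed per tumor and level, and levels were compared in edgeR over all 14713 genes tested. In such sums, fewer cells of a type and less RNA per cell cannot be told apart. Of the 7 members, 6 passed the low-count filter.

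The comparison of the highest with the lowest level asked which members follow hypoxia. MT1X, MT2A and MT1E were higher at level 4, and MT1F, MT1M and SLC30A1 did not pass the test. That is 3 of 6 members called, all higher, beside a background of 22.0% of all tested genes called, 11.6% higher and 10.3% lower. The median log2 fold change of the 6 was 0.57, against 0.00 over all tested genes.

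MT1X changed the most steeply among the abundant members. In Tumor-897 it stood at 299, 475, 680 and 1168 CPM from level 1 to level 4. In Tumor-899 it stood at 147, 186, 346 and 646 CPM. The order of the levels was the same in both sections, and Tumor-897 was the higher at every level. Level 4 was 4.49-fold above level 1 (log2 2.17 ± 0.10 SE, n = 2 tumors, edgeR adjusted p = 1.77e-07), with log2 values of 2.09 in Tumor-897 and 2.23 in Tumor-899.

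MT2A, the main metallothionein of most human cells, was also higher at level 4. It stood at 3439, 3791, 4217 and 4961 CPM in Tumor-897 and at 3019, 3074, 3739 and 4528 CPM in Tumor-899. Level 4 was 1.59-fold above level 1 (log2 0.67 ± 0.05 SE, n = 2, edgeR adjusted p = 8.00e-06), with 0.65 and 0.68 in the 2 tumors. The fold change was smaller than that of MT1X, while the difference between levels 1 and 4 in CPM was larger for MT2A, which started from a higher level.

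MT1E, another isoform of the cluster, stood at 1136, 1214, 1266 and 1324 CPM in Tumor-897 and at 801, 782, 976 and 1119 CPM in Tumor-899. Level 4 was 1.38-fold above level 1 (log2 0.47 ± 0.08 SE, n = 2, edgeR adjusted p = 0.00130). In Tumor-899 levels 1 and 2 stood nearly level, and the rest of the course lay above them.

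The summed count of the 6 metallothionein genes, which is not affected by how reads were split among them, stood at 4895, 5504, 6195 and 7515 CPM in Tumor-897. In Tumor-899 it stood at 4008, 4065, 5078 and 6330 CPM. Level 4 was 1.68-fold above level 1 (log2 0.75 ± 0.05 SE, n = 2, edgeR adjusted p = 3.86e-06). Without the tumor as a block the calls of MT1X, MT2A, MT1E and the sum were lost (edgeR adjusted p = 0.0562, 0.0579, 0.353 and 0.0814), with the fold changes nearly the same. The overall difference between the sections then counts as error.

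The members that did not pass stood at lower counts. MT1F, a minor isoform, stood at 15.5, 15.4, 15.8 and 17.4 CPM in Tumor-897 and at 11.9, 14.5, 11.5 and 14.5 CPM in Tumor-899 (log2 0.32 ± 0.12 SE, edgeR adjusted p = 0.0771). SLC30A1, the zinc exporter, stood at 42.1, 39.0, 40.2 and 35.8 CPM in Tumor-897 and at 44.7, 43.5, 42.9 and 39.1 CPM in Tumor-899. Its log2 fold change was -0.10 ± 0.07 SE (edgeR adjusted p = 0.341), with -0.11 and -0.09 in the 2 tumors. Scaled by library size alone, where the median of all genes also shifts to -0.11, it was called lower (log2 -0.22, edgeR adjusted p = 0.0452). In neither section did the exporter show the climb seen for MT1X and MT2A.

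**Figure D1:**
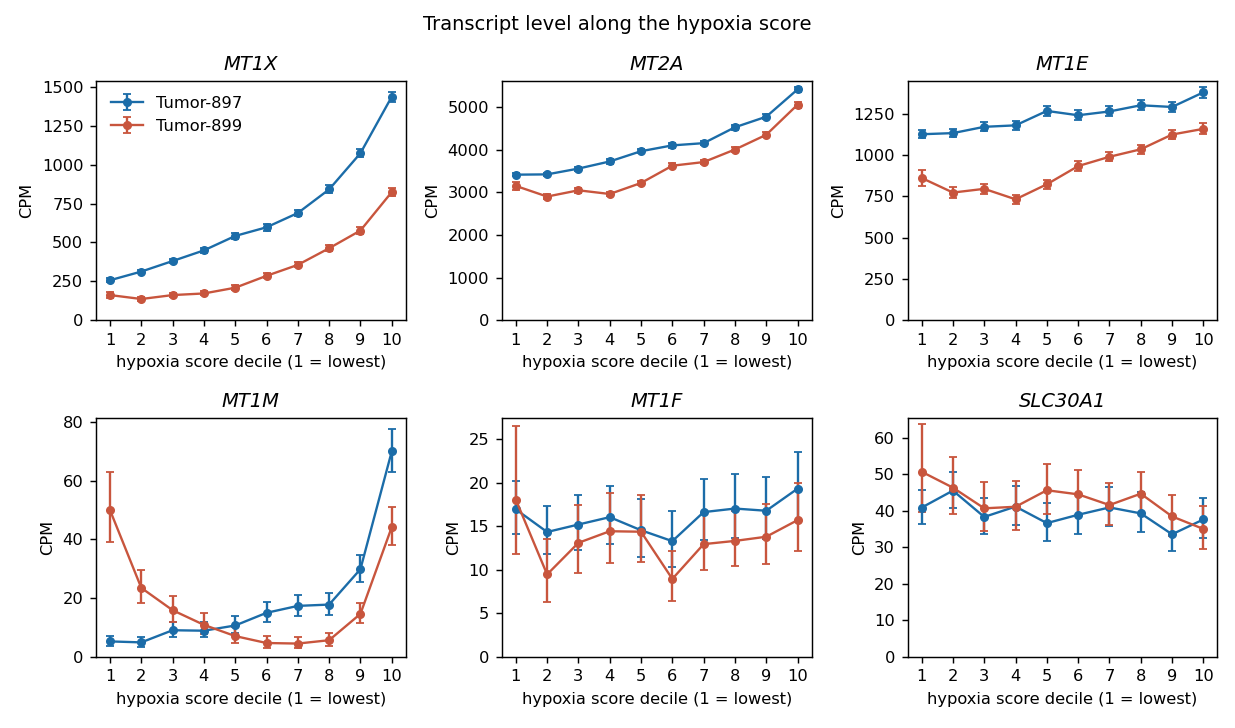
Level of 6 members in CPM (vertical axis, from 0) along deciles of the hypoxia score (horizontal axis, 1 = lowest) in Tumor-897 (blue) and Tumor-899 (red), with bars for the 95% Poisson interval of the count. MT1X ran from 256.4 to 1437 CPM in Tumor-897 and from 161 to 824 CPM in Tumor-899, while MT1M was high at both ends in Tumor-899 only.

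A finer division into 10 deciles of the score shows where along the range the levels differed. MT1X in the top decile stood at 1437 CPM in Tumor-897 and 824 CPM in Tumor-899, which is 5.61 and 5.11 times the bottom decile. Of the 9 steps between deciles, 9 went up in Tumor-897 and 8 in Tumor-899, where the lowest value was in decile 2 at 136 CPM. MT2A was 1.59 and 1.61 times as high in the top decile as in the bottom one. SLC30A1 ranged from 33.5 CPM in decile 9 to 45.5 CPM in decile 2 in Tumor-897, where the top decile was 0.920 times the bottom one. In Tumor-899 it ranged from 35.0 CPM in the top decile to 50.7 CPM in the bottom one, a ratio of 0.691. The climb of MT1X thus went on into the most hypoxic decile in both sections.

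Neighbouring levels were compared to see which steps exceed the error of the same fit. From level 1 to level 2 no member passed (MT1X log2 0.52 ± 0.10 SE, edgeR adjusted p = 0.178), although MT1X had an unadjusted p under 0.05, and DESeq2 did not call MT1X or MT2A there either. The background there was 0.00680% of all tested genes called, which is 1 gene, with 782 genes at an unadjusted p under 0.05. From level 2 to level 3 MT1X rose (log2 0.72 ± 0.09 SE, edgeR adjusted p = 0.0200), against a background of 0.0680% of all tested genes called, 0.0612% higher. From level 3 to level 4 MT1X rose again (log2 0.92 ± 0.09 SE, edgeR adjusted p = 9.43e-04), and MT2A rose as well (log2 0.33 ± 0.05 SE, edgeR adjusted p = 0.00968), against 1.03% of all tested genes called, 0.972% higher. MT1X was thus called at 2 of the 3 steps. The other members passed at no step, and neither the MT1X nor the MT2A steps passed without the tumor as a block.

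Because the members differed in steepness, the make-up of the metallothionein UMIs, here those of the 6 members alone, differed along the score. MT1X made up 6.10%, 8.62%, 10.98% and 15.5% of metallothionein UMIs from level 1 to level 4 in Tumor-897. In Tumor-899 it made up 3.68%, 4.57%, 6.81% and 10.2%. The exact binomial intervals of these shares, which cover counting error only, did not overlap between levels in either section. MT1E went the other way, from 23.2% at level 1 to 17.6% at level 4 in Tumor-897 and from 19.98% to 17.7% in Tumor-899. MT2A remained the main part throughout, between 66.0% and 70.3% in Tumor-897 and between 71.5% and 75.6% in Tumor-899.

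**Figure D2:**
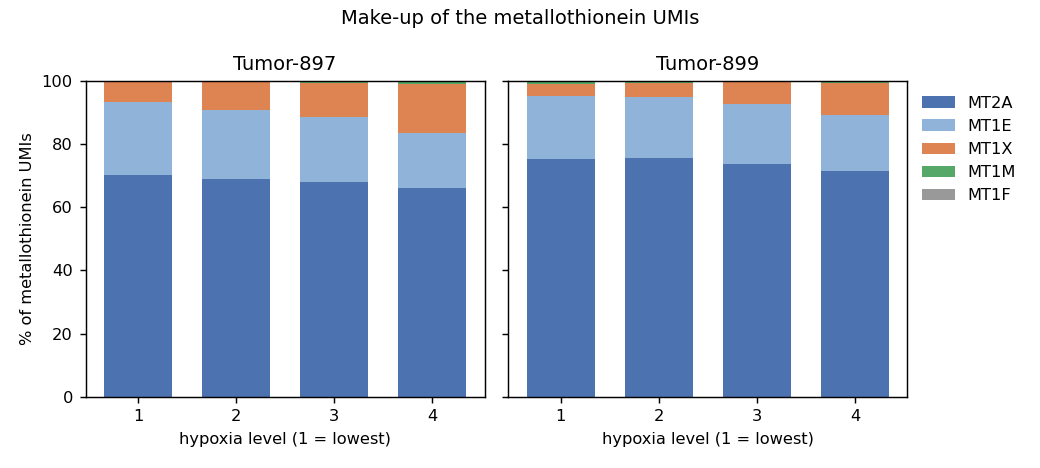
Make-up of the metallothionein UMIs (vertical axis, percent) at the 4 hypoxia levels (horizontal axis) in each tumor, with 1 colour per gene. MT2A makes up the largest part of every bar, and the MT1X part is larger at level 4 (15.5% and 10.2%) than at level 1 (6.10% and 3.68%).

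In space, MT1X and MT2A were high along bands of high score, and in Tumor-899 also in the tissue that such a band encloses. Moran I, which measures how alike adjacent spots are, was 0.487 for MT1X in Tumor-897, rank 18 of 6373 genes, and 0.325 in Tumor-899, rank 42 of 4695. For MT2A it was 0.465 and 0.231, and for MT1M 0.292 and 0.400. SLC30A1 had 0.040 and 0.073, close to the medians of all ranked genes at 0.042 and 0.091. Over single spots MT1X correlated with the score at r = 0.65 and 0.51, a description over 2536 and 2841 spots that share library and depth.

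**Figure D3:**
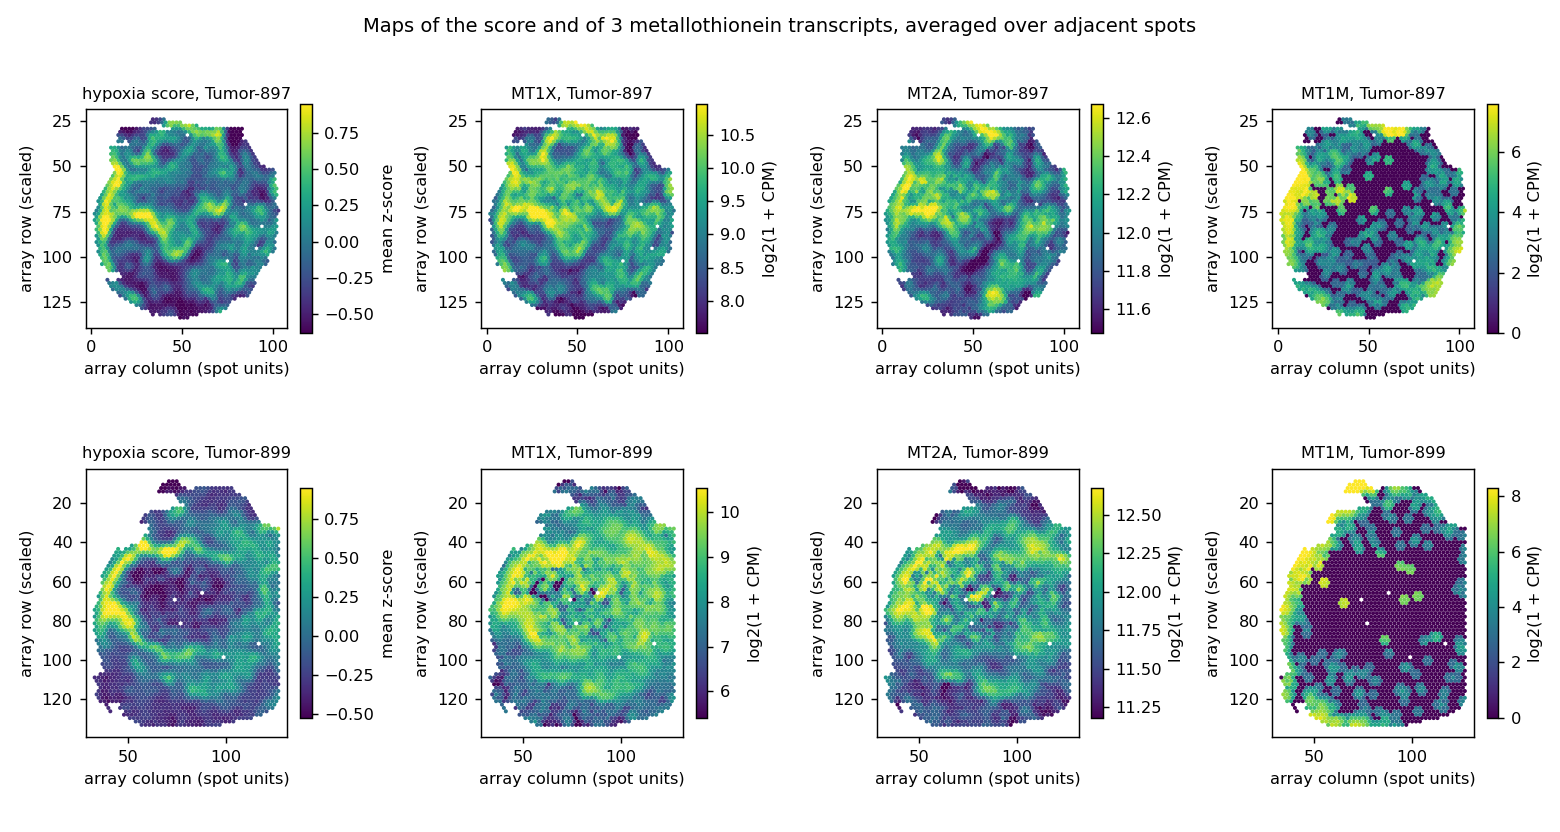
Maps of the hypoxia score (mean z-score) and of MT1X, MT2A and MT1M (log2 of 1 plus CPM, averaged over adjacent spots) in Tumor-897 (top) and Tumor-899 (bottom), with array column and scaled array row as axes and colour limits at the 1st and 99th percentile of each map. MT1X and MT2A are bright along the high-score bands and, in Tumor-899, also inside the ring of high score, and MT1M is bright along stretches of the tissue edge.

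The likeness of a gene's pattern to that of a member was taken as the lower of the 2 sections' Pearson r over tiles of equal size, 44 tiles in Tumor-897 and 48 in Tumor-899, which share library, depth and the score gradient. Among 6565 genes the 6 most like MT1X were BNIP3 (0.93), NDRG1 (0.91), SLC2A3 (0.91), BHLHE40 (0.90), LOX (0.89) and HK2 (0.89). BNIP3, a mitophagy receptor, and NDRG1 are themselves in the score. SLC2A3 is a glucose transporter, BHLHE40 a transcriptional repressor, LOX the collagen cross-linking lysyl oxidase and HK2 the hexokinase of glycolysis. The 6 most like MT2A were MIF (0.80), SLC2A1 (0.80), PGK1 (0.79), LIMCH1 (0.79), RPL39 (0.78) and ENO1 (0.78), of which SLC2A1 and PGK1 are in the score. MIF is a cytokine, and PGK1 and ENO1 are enzymes of glycolysis. With smaller tiles 5 of the 6 genes were again named for MT1X, but only 2 of 6 for MT2A, so the MT2A names depend on the tile size.

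Members differed in how far they shared these patterns. MT1X and MT2A tracked each other at r = 0.76 in Tumor-897 and 0.88 in Tumor-899 over tiles. MT1E tracked MT2A at 0.71 and 0.80. SLC30A1 stood at -0.30 and -0.13 with MT1X and at -0.41 and -0.28 with MT2A. The median likeness over the 6565 genes was itself -0.28 for either target. By likeness SLC30A1 ranked 3529 for MT1X and 4661 for MT2A, so negative values of this size are common among genes. These values describe single sections and carry no test.

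MT1M stood apart from the other metallothionein members tested, though MT1B, a paralog outside the members, resembled it, as described further on. It stood at 6.06, 9.26, 16.4 and 42.9 CPM from level 1 to level 4 in Tumor-897. In Tumor-899 it stood at 29.2, 9.01, 4.71 and 23.1 CPM, high at both ends and low between. Level 4 against level 1 gave a log2 fold change of 1.37 ± 0.56 SE (edgeR adjusted p = 0.102), with 2.91 in Tumor-897 and -0.24 in Tumor-899. The call depended on the setting, with 6 of 17 alternatives passing. Adjusted p-values ran from 3.03e-27 (edgeR with no low-count filter, where a gene's own spread was not used) to 0.917 (edgeR). With the outer tertile of spots left out, an alternative chosen after seeing the data, the log2 fold change was 0.09 (edgeR adjusted p = 0.917).

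A division that uses no expression value set the inner tertile of spots, by steps to the tissue border, against the outer tertile. MT1M was lower inside and MT1X higher inside, and the other 4 members tested did not pass, beside a background of 5.19% of 14709 genes called, 3.16% lower and 2.03% higher. MT1M stood at 5.10 CPM inside and 33.7 CPM outside in Tumor-897, and at 3.36 inside and 31.8 outside in Tumor-899. Inner spots of Tumor-899 were shallow, with a median of 2670 UMIs against 17265 outside, and 55.9% of them lay in the low-UMI area described further on. The inner level of MT1M was 7.46-fold lower (log2 -2.90 ± 0.14 SE, n = 2, edgeR adjusted p = 4.37e-09), and this call held in all 5 alternatives tested, with log2 values from -3.01 to -2.08.

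MT1X stood at 676 CPM inside and 595 outside in Tumor-897, and at 427 inside and 272 outside in Tumor-899. The log2 fold change was 0.42 ± 0.09 SE (n = 2, edgeR adjusted p = 0.0112), with 0.18 and 0.68 in the 2 tumors, so that leaving out either section moves the value by over 1.5 times (0.18 without Tumor-899 and 0.68 without Tumor-897). The call was lost in DESeq2 (adjusted p = 0.9998) and without the tumor as a block (edgeR adjusted p = 0.757). For MT2A the log2 fold change was 0.04 ± 0.07 SE, for MT1E 0.12 ± 0.08, for SLC30A1 0.14 ± 0.08 and for the metallothionein sum 0.08 ± 0.07, with edgeR adjusted p-values from 0.400 to 0.847. For MT1F it was -0.03 ± 0.13 SE (edgeR adjusted p = 0.920).

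**Figure D4:**
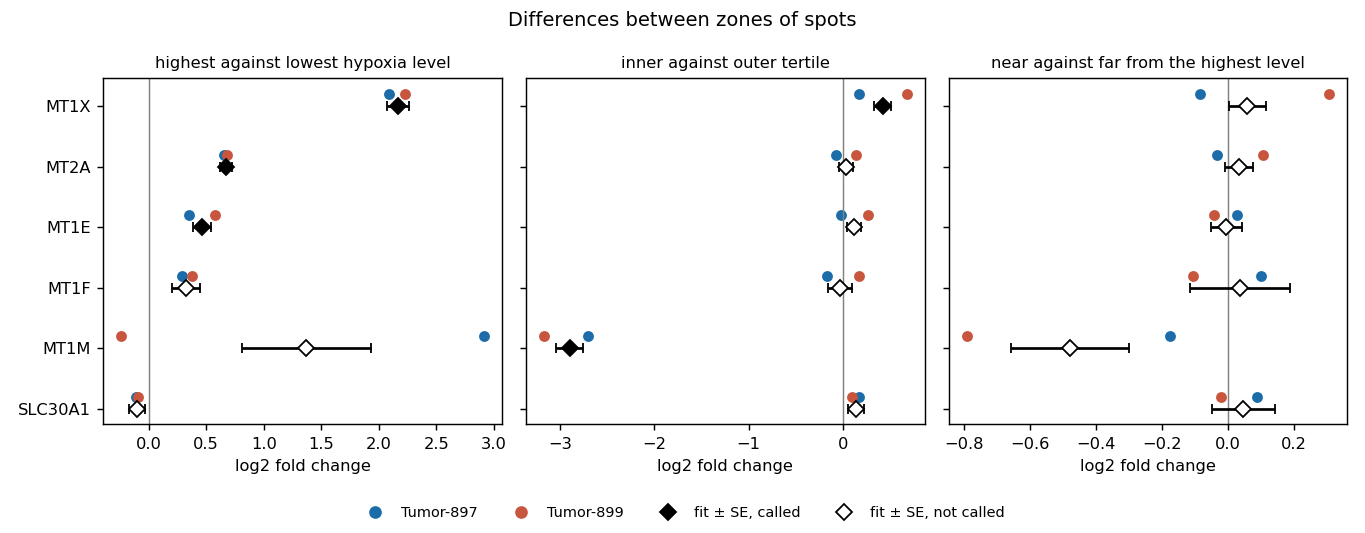
Log2 fold changes (horizontal axis) of 6 members (rows) in 3 comparisons of zones, with the fit and its SE as diamonds (filled where called at an edgeR adjusted p under 0.05) and each tumor's own value as a coloured point. MT1X, MT2A and MT1E are called higher in the highest hypoxia level, MT1M is called lower inside the tissue at log2 -2.90, and no member is called in the near against far comparison.

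By steps to the border MT1M stood at 39.8, 49.7, 26.0, 11.04, 8.59 and 4.17 CPM at 1, 2, 3 to 4, 5 to 8, 9 to 14 and 15 to 26 steps in Tumor-897. In Tumor-899 it stood at 96.3, 56.4, 28.9, 7.26, 4.76 and 3.18 CPM over the same steps, the last reaching 28. The level thus lay mostly within 4 spots of the edge in both sections. MT1X had no such course, with 478 to 698 CPM in Tumor-897 and 218 to 440 CPM in Tumor-899 over these steps.

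Within the outer tertile, MT1M was not even. In Tumor-897 its outer level was 7.24, 12.4, 28.1 and 85.2 CPM from hypoxia level 1 to 4. In Tumor-899 it was 38.3, 12.9, 8.86 and 74.3 CPM. In both sections the highest of the 12 combinations of level and tertile was the hypoxic border, while hypoxic spots of the inner tertile stood at 2.96 and 3.29 CPM, so the border was 28.8 and 22.6 times as high at level 4. At levels 1 to 3 the outer tertile was 1.81 to 3.76 times the inner one. All these ratios are rough, since over all 4 levels the inner tertile held 83 MT1M UMIs in Tumor-897 and 30 in Tumor-899. The hypoxic border held 9.70% of the spots and 47.6% of the MT1M UMIs (484 of 1017) in Tumor-897, and 8.31% of the spots and 41.0% of the UMIs (245 of 597) in Tumor-899. This combination was looked at after the 2 comparisons were known and was not tested.

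**Figure D5:**
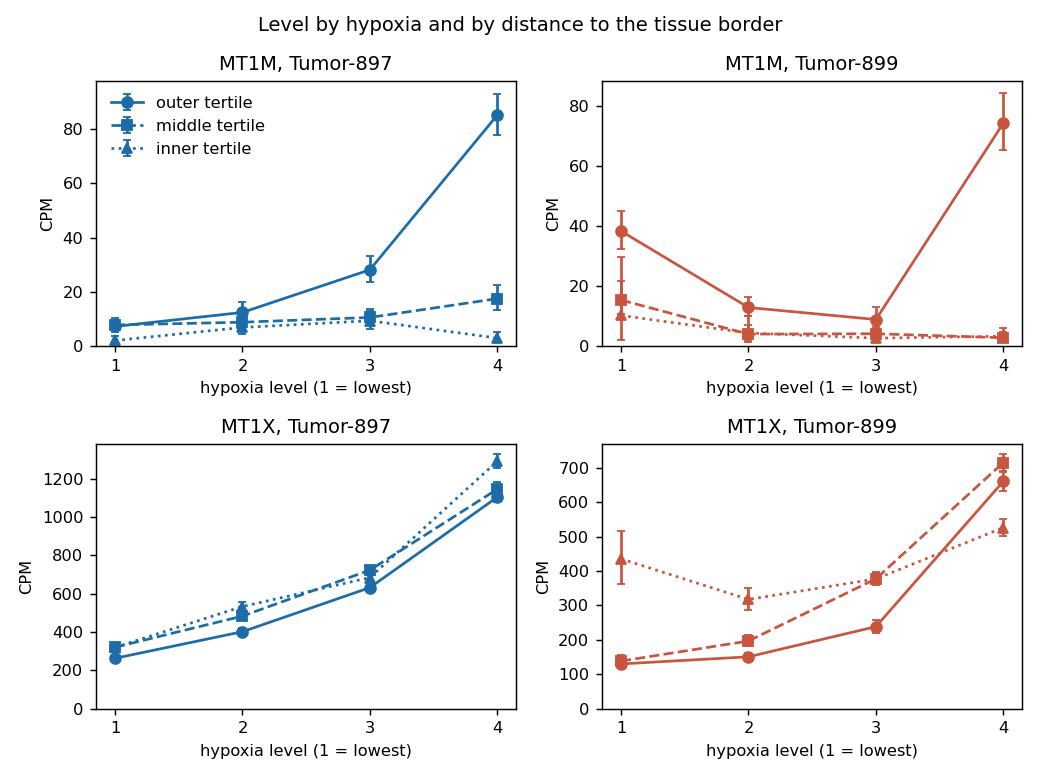
Level of MT1M (top) and MT1X (bottom) in CPM (vertical axis, from 0) at the 4 hypoxia levels (horizontal axis), separately for the outer, middle and inner tertile of spots by steps to the tissue border, with 95% Poisson intervals of the count. MT1M reaches 85.2 and 74.3 CPM in the outer tertile at level 4, and MT1X is higher at level 4 than at level 1 in every tertile of Tumor-897.

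Markers of fibroblasts went with MT1M between the border and the inside, but followed it less closely along hypoxia level. Their summed level (9 genes, none at 0, but DCN and LUM under 1 CPM in both sections) was 1503 CPM outside and 509 CPM inside in Tumor-897, and 1994 and 369 CPM in Tumor-899. COL1A1, COL1A2 and COL3A1 made up most of that sum, at 190 to 476 CPM each over whole sections. The other fibroblast markers stood at 21.1 CPM or less each. All 7 of the 9 markers that passed the low-count filter were lower inside, beside a background of 3.16% of all tested genes lower and 2.03% higher. At hypoxia level 4 against level 1, 3 of these 7 were lower and none higher (median log2 -0.68), beside a background of 10.3% lower and 11.6% higher. From level 1 to 4 the sum stood at 898, 737, 880 and 1032 CPM in Tumor-897. In Tumor-899 it stood at 1961, 1337, 681 and 780 CPM. Over tiles MT1M correlated with the fibroblast sum at r = 0.73 and 0.76. Among the other cell types, 4 of 6 tested markers of macrophages and granulocytes, 6 of 6 of skeletal muscle and 2 of 2 of adipocytes were lower inside. So were 1 of 4 endothelial and 1 of 3 skin epithelium markers, while of 2 red blood cell markers 1 was higher and none lower. The skeletal muscle sum was 394 CPM outside and 23.8 CPM inside in Tumor-899, but 14.2 and 10.3 CPM in Tumor-897. Over tiles MT1M correlated with the macrophage and granulocyte sum at r = 0.78 in Tumor-897 and -0.15 in Tumor-899, and with the skeletal muscle sum at 0.064 and 0.30. CD68, at 177 and 167 CPM, made up most of the macrophage and granulocyte sum, while the other 9 markers stood at 12.8 CPM or less each, with S100A8 and CD163 at 0 to 2 UMIs. That sum was 188 CPM inside and 224 outside in Tumor-897, but 199 inside and 176 outside in Tumor-899. The 6 genes most like MT1M, a target added after seeing the data, were LGALS1 (0.75), COL3A1 (0.74), COL1A1 (0.70), EFEMP2 (0.70), COL5A2 (0.69) and COL1A2 (0.69), of which 4 encode fibrillar collagen chains. COL3A1, COL1A1 and COL1A2 are also the main part of the fibroblast sum, so this list in part repeats the correlation with that sum. At the border the 2 measures did not always run together, since in Tumor-899 the fibroblast sum was 2470 CPM at level 1 and 2112 CPM at level 4 of the outer tertile, where MT1M was 38.3 and 74.3 CPM. With the 10% of spots richest in markers of other cells left out, MT1M was called higher at hypoxia level 4 (log2 1.95, edgeR adjusted p = 3.52e-04). That ranking pooled all marker lists, including skin epithelium, where KRT10 stood at 325 and 326 CPM over whole sections. The skin epithelium sum was 393 CPM outside and 385 inside in Tumor-897, and 402 and 418 in Tumor-899. The spots left out were thus not chosen by fibroblast markers alone. The part of fibroblasts and of mouse reads in the MT1M level was not tested.

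Within the tertiles, MT1X kept its order by hypoxia in Tumor-897, with level 4 at 4.19, 3.57 and 4.03 times level 1 in the outer, middle and inner tertile. In Tumor-899 the ratios were 5.07, 5.16 and 1.21. The inner tertile of Tumor-899 at level 1 stood at 435 CPM, from 128 UMIs over 238 spots, and level 4 stood at 526 CPM. Most of these inner level 1 spots held few UMIs, as only 8 of the 238 reached 2000 UMIs. With the outer tertile left out, MT1X was still called (log2 2.04, edgeR adjusted p = 1.02e-12).

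Each section has an area of low UMI counts, set apart by a threshold on smoothed UMIs, which took 20.9% of spots in Tumor-897 and 29.2% in Tumor-899. Depth differed between levels, with a median of 29243 UMIs per spot at level 1 and 19786.5 at level 4 in Tumor-897, but 3906 and 17513.5 in Tumor-899. In Tumor-899, 51.1% of level 1 spots lay in the low-UMI area. Over all level 1 spots of that section, inside and outside this area, skeletal muscle markers summed to 895 CPM, against 23.7 CPM at level 4. MT1X was higher in the low-UMI area than outside it in 8 of 8 combinations of tumor and level, by 1.28 to 3.23 times. At level 1 it stood at 689 against 294 CPM in Tumor-897 and at 376 against 129 CPM in Tumor-899. MT2A was higher there in 8 of 8 as well, by 1.04 to 1.28 times, whereas MT1E was higher in 3 of 8. From far fewer UMIs, SLC30A1 was higher in 6 of 8, with ratios from 0.896 to 1.45. MT1M was higher in 5 of 8, with ratios from 0.677 to 5.78, and MT1F in 4 of 8. These area values carry no test. With the low-UMI area left out, the difference between levels was as large for MT1X (log2 2.25, edgeR adjusted p = 2.87e-07) and MT2A (log2 0.68, edgeR adjusted p = 1.22e-05).

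Spots thinned to 2000 UMIs gave a like picture at equal depth. An MT1X UMI was found in 47.9% of level 1 and 88.0% of level 4 spots in Tumor-897, and in 26.2% and 71.1% in Tumor-899. Without thinning the shares were 97.6% and 99.8%, and 58.8% and 98.7%. Thinning left out 15 and 608 spots, of which 330 lay in level 1 of Tumor-899. The log2 fold change of MT1X on thinned counts was 2.18 (edgeR adjusted p = 5.28e-13).

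The study's title concerns hypoxia programs kept by cells that have moved into better oxygenated regions. Spots of levels 1 and 2 near level 4 were therefore set against those far from it, matched on the score (403 per side in Tumor-897 and 421 in Tumor-899). The score is made of hypoxia-induced genes, so matching also evens out any kept program that the score carries. Nearness to level 4 does not mark cells with a past in hypoxia. The comparison therefore cannot decide whether such programs were kept. None of the 6 members tested was called, beside a background of 0.231% of 13409 genes called, 0.0597% higher and 0.172% lower. Of the 6, MT1M had an unadjusted p under 0.05, and DESeq2 called no member either. MT1X stood at 349 CPM near and 370 CPM far in Tumor-897, and at 179 near and 145 far in Tumor-899. Its log2 fold change was 0.06 ± 0.06 SE (n = 2, edgeR adjusted p = 0.984), with -0.09 and 0.31 in the 2 tumors. Without matching it was 0.23 (edgeR adjusted p = 0.0138), where near spots also had the higher mean score, -0.26 against -0.35 in Tumor-897 and -0.21 against -0.31 in Tumor-899. Matched or not, these edgeR fits did not use a gene's own spread, so small p-values here do not show that the tumors agree. MT2A stood at 3527 near and 3614 far, and at 3111 near and 2894 far (log2 0.03 ± 0.04 SE, edgeR adjusted p = 0.997). MT1M stood at 7.21 near and 8.18 far, and at 11.8 near and 20.6 far (log2 -0.48 ± 0.18 SE, edgeR adjusted p = 0.617; without matching -0.75, edgeR adjusted p = 1.43e-04), with skeletal muscle markers at 37.3 near and 912 CPM far in Tumor-899.

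Other genes of metal handling were read against the same background of 11.6% of all tested genes called higher and 10.3% called lower at the highest level, and in lists this short 1 or 2 calls lie near it. Of 7 further metallothionein genes 2 were tested. MT1A, a paralog of the members, was higher (log2 0.41 ± 0.10 SE, edgeR adjusted p = 0.0135), with 0.18 and 0.72 in the 2 tumors. MT1B gave 1.16 ± 0.47 SE (edgeR adjusted p = 0.0994), with 2.29 and -0.13 in the 2 tumors. MT1B resembled MT1M in place, being lower inside the tissue (log2 -2.29 ± 0.22 SE, edgeR adjusted p = 6.90e-06) and highest at the hypoxic border, with 30.4 and 37.0 CPM. Whether MT1B and MT1M shared reads was not tested. MTF1, the zinc-sensing factor, stood at 15.4 and 15.8 CPM and gave 0.11 ± 0.13 SE (edgeR adjusted p = 0.596).

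Among zinc exporters of the SLC30 family other than SLC30A1, 1 of 6 tested was lower and none higher, with a median log2 fold change of -0.24 against 0.00 over all tested genes. It was SLC30A9 (log2 -0.23 ± 0.07 SE, edgeR adjusted p = 0.0369). SLC30A3 and SLC30A4, vesicular zinc transporters, gave -0.47 ± 0.32 and -0.28 ± 0.19 and did not pass. Among the zinc importers of the SLC39 family 2 of 11 were higher and none lower (median 0.10), namely SLC39A4 (0.33 ± 0.09 SE, edgeR adjusted p = 0.0250) and SLC39A13 (0.21 ± 0.07 SE, edgeR adjusted p = 0.0461). SLC39A11 gave 0.27 ± 0.13 and did not pass. The calls of SLC30A9, SLC39A4 and SLC39A13 were lost in DESeq2 (adjusted p = 0.285, 0.192 and 0.310) and, with that of MT1A, without the tumor as a block (edgeR adjusted p = 0.170, 0.241, 0.148 and 0.134). Over 17 alternatives SLC39A13 was called in 7, SLC39A4 in 8, SLC30A9 in 11 and MT1A in 14, so most alternatives lost the calls of both importers. Without Tumor-899 the value of SLC39A4 was 0.20.

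Of 10 genes of copper handling, 1 was lower and none higher (median -0.01). COMMD1, a regulator of copper export, was lower (log2 -0.42 ± 0.11 SE, edgeR adjusted p = 0.0133), with -0.24 and -0.69 in the 2 tumors, and ATP7A, a copper-exporting pump, gave 0.58 ± 0.20 (edgeR adjusted p = 0.0537). Metallothionein genes also respond to glucocorticoids, and of 6 tested glucocorticoid-responsive genes 2 were higher and 1 lower (median 0.15). ERRFI1, an inhibitor of EGFR signalling, was higher (1.63 ± 0.07 SE, edgeR adjusted p = 1.77e-07), as was the clock gene PER1 (0.53 ± 0.11 SE, edgeR adjusted p = 0.00574). FKBP5, a co-chaperone of the glucocorticoid receptor, was lower (-0.66 ± 0.09 SE, edgeR adjusted p = 2.70e-04). With its calls in both directions, this list showed no common course. The calls of COMMD1 and PER1 were lost in DESeq2 (adjusted p = 0.0535 and 0.0586), and that of COMMD1 also without the tumor as a block (edgeR adjusted p = 0.141). Over the 17 alternatives COMMD1 was called in 13, PER1 in 15, FKBP5 in 16 and ERRFI1 in 17.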

How the data were processed

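Per the file headers the deposited matrices hold UMI counts of each gene in each spot, written by Space Ranger 1.3.0, and the submitters' processing notes name hg38. The counts carry no normalization. Array rows and columns (other values, not measurements) were deposited beside them. Spots on tissue were kept from 500 UMIs upward. The score averaged z-scores of log2(1 + UMIs per 10000) over 28 hypoxia genes, each found in 5% or more of the spots of both tumors, was then averaged over adjacent spots, and was cut into quartiles within each tumor. CPM divides a gene's UMIs in a zone by all UMIs of that zone.

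Sums per tumor and zone were tested in edgeR 4.0.16 (TMM, filterByExpr, quasi-likelihood F test). The tumor was a block, since the zones compared come from the same sections, and a fit without it is given where calls changed. Residual degrees of freedom were 3 over the 4 levels and 1 in the other comparisons. The error of each gene was drawn toward a prior shared over genes. Its median degrees of freedom were 9.0 over the levels and 15.8 in inner against outer. They were infinite in near against far, with no low-count filter and in some alternatives of inner against outer. A gene's own spread is then not used, so small p-values there do not show that the tumors agree. A call needs a Benjamini-Hochberg adjusted p under 0.05 over all genes of the fit. Score genes were left out of the comparisons of levels and of near against far, but not of inner against outer. Steps to the border ignored gaps smaller than 5 positions. Near and far spots were split at 4 and 5 steps from level 4 and matched in 20 bins of score. Tiles spanned 8 array rows by 16 columns with 20 or more spots, likeness used genes from 20 CPM upward, and Moran I was ranked among genes averaging 0.5 or more UMIs a spot, a level MT1M does not reach. The fits of highest against lowest, inner against outer and near against far were also run on simulated counts. These had the same dispersion for every gene and no difference between tumors other than depth. They therefore do not show how the tests handle spread between sections. Alternatives included DESeq2 1.42.0, its size factors, library size alone, no low-count filter, other depths, areas, levels and scores, and each tumor left out.

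Members, lists and tests were chosen with earlier results of these data known. The text names all 7 members, the 6 genes most like MT1X and MT2A, and from each list the called genes and the 2 with the largest absolute log2 fold change. MT1M as a target, marker sums over tiles, level by border values and the outer tertile left out were added after seeing the data. Images were not used here. Scripts ran in Python 3.11.15 and R 4.3.3.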

Additional observations from a re-analysis of the deposited data

How the results depend on the processing

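With only 2 tumors in 1 group, every test rests on how differences between zones vary between them, and low counts limit MT1F, MT1G and MT1M. In the highest against lowest comparison MT1X (log2 1.93 to 2.64), MT2A (0.56 to 0.82), MT1E (0.35 to 0.51) and the metallothionein sum (0.64 to 0.91) kept their direction in 17 tested alternatives and their call in 16, the exception being no replicate block, where the sum lost its call (log2 0.75, edgeR adjusted p = 0.0814). At level 4 against level 3 the sum also lost its call with no replicate block (log2 0.37, adjusted p = 0.899). Leaving out a tumor gave the sum log2 0.74 to 0.75, without a test.

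Counts of called genes moved more. In the highest against lowest comparison (1713 higher, 1522 lower) they were 791 and 588 in DESeq2, 556 and 342 with no replicate block, 1055 and 3030 by library size alone, and 443 and 282 in thinned spots, and 1007 were lower with only the sums of levels 1 and 4. For level 2 against 1 (0 and 1), DESeq2 gave 2 and 0 and no replicate block 0 lower. For level 3 against 2 (9 and 1), no replicate block gave 0 and 0, DESeq2 0 lower, and 14 were higher without the low-UMI area. For level 4 against 3 (143 and 9), DESeq2 gave 79 and 4 and no replicate block 0 and 0. For inner against outer (298 and 465), DESeq2 gave 25 and 85 and no replicate block 8 and 36. For near against far (8 and 23), DESeq2 and no replicate block gave 0 and 0, the low-UMI area left out gave 5 higher, and no matching gave 19 and 53. The cause was not tested beyond what each setting removes. With smaller tiles 2 of the 6 genes named for MT2A recurred.

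Directions turned only for values near 0 or not called, except SLC30A9 and SLC39A13. In the highest against lowest comparison, thinned spots gave SLC30A1 0.021, MTF1 -0.050, SLC30A9 0.00048 and SLC39A13 -0.058, library size alone gave MTF1 -0.010, and the outer tertile left out gave MT1F -0.039. For inner against outer, MT1F gave 0.081 without the spots richest in other markers. For near against far without matching, MT1E gave 0.0066 and MT1F -0.060. The cause was not tested.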
